A study of Homo sapiens with 16 samples.

Results

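The genes PIDD1, CASP2, APAF1, CASP9, CASP8, CASP10, CASP6 and CASP1 encode parts of the cell-death machinery and were followed through U2OS cells that carried MDM2 W329G or wild-type MDM2 and were given 5-fluorouracil or vehicle. They were chosen by name, as 8 of the 28735 genes whose symbols were found in the count tables of both experiments, and all 8 passed the filter on low counts. Caspases are cysteine proteases that cut their targets after aspartate, and the initiator caspases are switched on when a scaffold brings them together. APAF1 builds the apoptosome that activates CASP9 once cytochrome c has left the mitochondria, PIDD1 builds the PIDDosome that activates CASP2, and the receptor adaptor FADD gathers CASP8 and CASP10. In cells with functional p53 the PIDDosome is linked back to the p53 pathway, because PIDD1 is a p53 target gene and activated CASP2 cleaves MDM2, the ubiquitin ligase that keeps p53 low.

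U2OS comes from a human bone tumour and keeps functional p53, and the W329G cells were edited from it with CRISPR/Cas9. The 4 groups of 4 libraries were W329G cells given 5-FU, W329G cells given DMSO, WT cells given 5-FU and WT cells given DMSO. 5-FU, a pyrimidine analog that disturbs thymidylate and ribosomal RNA synthesis, was used at 50 µM, and both treatments lasted 24 h. Each genotype was present as cells 1 and cells 2, and the layout was run in 2 experiments sequenced by different vendors. Replicate 1 stands for cells 1 and replicate 2 for cells 2 in experiment 1, and likewise replicate 3 for cells 1 and replicate 4 for cells 2 in experiment 2. Poly-A RNA was sequenced to totals of 24715999 to 56877328 counts per library. The labels do not say how the numbered cells were derived or whether the experiments were separate cultures, so p-values cover the spread among these libraries, which may be technical.

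Several properties of the libraries bear on every value below. The difference between cells 1 and cells 2 went against itself between experiments: across 16447 genes, its correlation between experiment 1 and experiment 2 was -0.57 in W329G 5-FU, -0.48 in W329G DMSO, -0.30 in WT 5-FU and -0.19 in WT DMSO. Libraries of the same number thus deviated in opposite directions in the 2 experiments, against labels that number the cells alike, and whether numbers were exchanged was not tested. Responses to 5-FU do not use the number across experiments, and the genotype differences described below are given both as labelled and with the numbers exchanged in experiment 2. Mitochondrially encoded genes took 7.14% to 31.84% of the joined counts. Of 10 markers of the mesenchymal and osteoblast lineage 9 averaged at least 1 CPM (counts per 1e6 of the TMM-scaled library size), with TWIST1 below. The epithelial list had all 8 of its markers at 1 CPM or more, with a summed level of 139 to 638 CPM in W329G 5-FU, 139 to 659 CPM in W329G DMSO, 317 to 730 CPM in WT 5-FU and 258 to 613 CPM in WT DMSO. Of 10 blood cell markers 3 averaged at least 1 CPM, and LYZ reached 37.8 to 126 CPM in experiment 1 against at most 0.0741 CPM in experiment 2. Of 6 neural markers 4 averaged at least 1 CPM, with SOX10 and GFAP below. The part of these markers in the results was not tested. In bulk RNA, fewer cells of a kind and less RNA per cell cannot be told apart.

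The promoters of PIDD1 and CASP2 are shown because these partners in 1 complex went in opposite directions under 5-FU in WT cells. Each is the 250 bases before a RefSeq start, 5′ to 3′ on the strand of the gene in GRCh38.p14, with GC boxes (GGGCGG or its complement CCGCCC) in capitals. The PIDD1 stretch is chr11:805232-805481 on the minus strand, and the CASP2 stretch, for the first of its listed starts, is chr7:143288101-143288350 on the plus strand. Both lie in or across the gene bodies that the experiment 1 tables give.
PIDD1: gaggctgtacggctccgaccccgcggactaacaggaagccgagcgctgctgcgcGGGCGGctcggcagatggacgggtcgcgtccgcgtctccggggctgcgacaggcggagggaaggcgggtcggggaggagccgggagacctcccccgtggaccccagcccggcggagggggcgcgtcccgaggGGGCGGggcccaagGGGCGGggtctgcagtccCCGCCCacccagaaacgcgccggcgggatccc
CASP2: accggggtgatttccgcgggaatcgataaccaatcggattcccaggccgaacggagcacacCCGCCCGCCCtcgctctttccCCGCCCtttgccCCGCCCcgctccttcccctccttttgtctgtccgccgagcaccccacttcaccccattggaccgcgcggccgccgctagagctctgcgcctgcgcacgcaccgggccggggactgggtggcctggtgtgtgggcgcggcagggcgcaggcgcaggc
Each stretch held 4 GC boxes, counted on both strands with overlapping matches apart, and 14973 of 35116 RefSeq promoters of this length (42.6%) held at least 1. Neither stretch held the p53 decamer, the repeated unit of the p53 response element, searched on both strands and held by 5.57% of promoters. The table held 10 promoters of 6 members, and 2 of them held a p53 decamer. The 30-base windows around these are shown because they are the only such matches among the members, with the decamer in capitals, at chr1:15524959-15524988 on the minus strand for CASP9 and chr2:201257904-201257933 on the plus strand for CASP8.
CASP9: cggtggcacgAGGCTAGCCCttgggggcgg
CASP8: ctttccaataAAGCATGTCCagcgctcggg
The decamers began 188 bases before the CASP9 start and 121 bases before the CASP8 start. Their genes did not pass the test in either response to 5-FU. A match is a description of the letters and not a site of binding.

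Within a library, levels can be compared between genes only per length, which the experiment 1 tables allow as RPKM (CPM per kilobase of exon). Among the 8 members and CASP4, an inflammatory caspase, CASP6 had the highest median over the 8 libraries of experiment 1, at 10.5 RPKM. CASP8 followed at 5.16, PIDD1 at 4.45, CASP4 at 4.21, CASP2 at 2.67, APAF1 at 1.85 and CASP9 at 1.74 RPKM. CASP1 had a median of 0.441 RPKM and CASP10 of 0.162 RPKM. Ranges of neighbours in this order overlapped at every step except from CASP6 (8.91 to 11.9) to CASP8 (4.77 to 5.53), and from CASP9 (1.30 to 2.14) to CASP1 (0.200 to 1.02). The libraries of a group and of different groups were pooled in these ranges, and PIDD1 had the widest range of the members above 1 RPKM, 1.96 to 9.32.

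**Figure D1:**
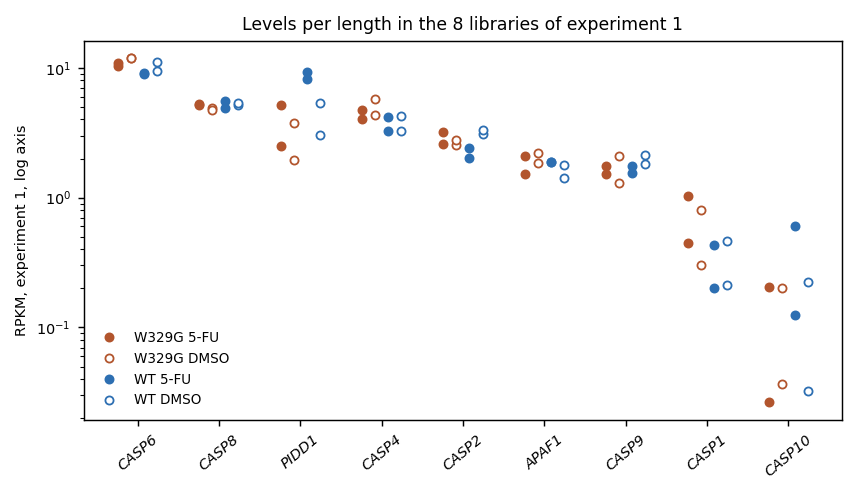
Levels per length of the 8 members and of CASP4 in experiment 1, ordered by their median, on a log axis in RPKM; each point is 1 library, filled for 5-FU and open for DMSO. CASP6 lies near 10 RPKM, and CASP1 and CASP10 lie at about 1 RPKM or below.

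PIDD1, the scaffold of the PIDDosome, was higher under 5-FU in all 4 pairs of either genotype. It lies on chromosome 11 from 799179 to 809753 on the minus strand, in the coordinates of the experiment 1 tables. In W329G cells PIDD1 stood at 14.7, 30.1, 75.5 and 48.8 CPM under 5-FU in replicates 1 to 4, against 11.5, 22.1, 43.9 and 24.9 CPM under DMSO. Each 5-FU library exceeded the DMSO library of the same cells and experiment, by 1.28, 1.36, 1.72 and 1.96 times, and the groups overlapped. The log2 change of 0.65 ± 0.31 (SE) did not pass in edgeR's quasi-likelihood test with a term for experiment (adjusted p = 0.389). It passed with the pairs of the same cells and experiment as blocks, at 0.65 ± 0.14 (edgeR adjusted p = 0.0134), and was lost there without W329G replicate 3 (0.0685). None of the 8 members was called in the W329G response without blocks, where edgeR called 0.705% of 16447 genes tested. At an unadjusted p under 0.05 the count was 0 in edgeR, against 13.0% of all genes, and DESeq2 called 0, against 3.84% of the genes to which it gave an adjusted p.

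In WT cells PIDD1 stood at 54.7, 47.8, 103 and 81.0 CPM under 5-FU, against 31.3, 17.8, 61.1 and 28.7 CPM under DMSO. The pairs were higher under 5-FU by 1.75, 2.69, 1.68 and 2.82 times. Within each experiment both 5-FU libraries lay above both DMSO libraries, while over both experiments the groups overlapped, because DMSO replicate 3 exceeded 5-FU replicates 1 and 2. The log2 change was 1.05 ± 0.31, with adjusted p = 0.0467 in edgeR's quasi-likelihood test with a term for experiment.

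PIDD1 was the only member called in the WT response, 1 of 8, while 8.38% of all genes tested were called, 627 higher and 752 lower. A count of 1 in 8 is near that background. DESeq2 called 2 of 8, PIDD1 and CASP2, and 13.0% of the genes to which it gave an adjusted p. With the pairs as blocks, a fit in which 24.8% of genes were called, PIDD1 rose by 1.12 ± 0.14 (edgeR adjusted p = 0.000115). The call without blocks rested on all 4 WT pairs: leaving out any one gave adjusted p between 0.0777 and 0.202. It was also lost without W329G replicate 2 (0.0545) or replicate 4 (0.0543), in experiment 1 alone (0.361), in experiment 2 alone (0.433) and without the experiment term (0.438), while the log2 change stayed between 0.93 and 1.18. With blocks, the edgeR adjusted p stayed at or below 0.00067 when any pair of either genotype was left out.

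The difference between the PIDD1 responses, W329G minus WT, was -0.40 ± 0.43 without blocks and -0.47 ± 0.20 with them, and neither passed (edgeR adjusted p = 0.941 and 0.211). The PIDD1 rise was thus called in each genotype with blocks, and its size was not shown to differ between them.

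**Figure D2:**
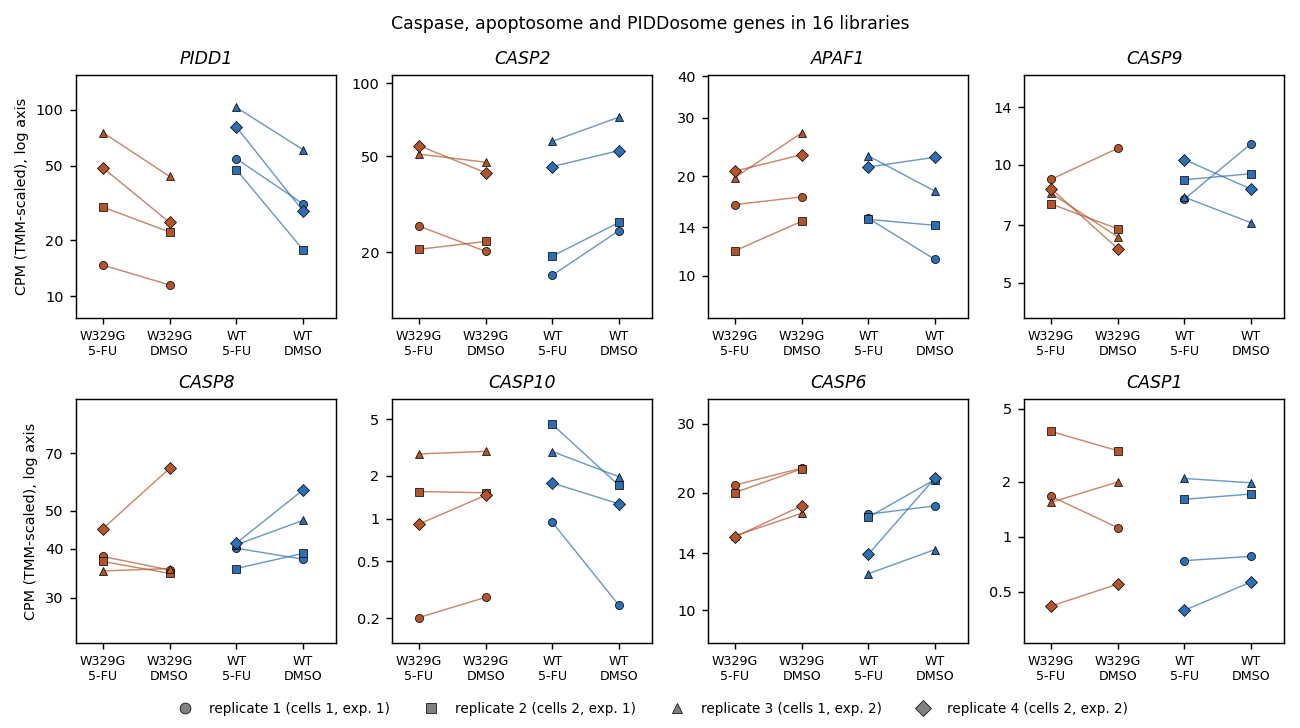
TMM-scaled CPM of the 8 genes in all 16 libraries on log axes with a scale of their own in each panel; colour gives the genotype, the symbol the replicate, and a line joins the 5-FU and DMSO libraries of the same cells and experiment. PIDD1 is higher under 5-FU in all 8 pairs, CASP2 is lower under 5-FU in all 4 WT pairs, and CASP6 is lower in all 8.

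Reads of PIDD1 may include some from RPLP2, a ribosomal protein gene on the opposite strand that shares 107 exon bases with it, 1.8% of the PIDD1 exon bases, and whose counts in experiment 1 were 1293.86% of those of PIDD1. Whether counting used strand is not given in the sources used here. RPLP2 itself changed by -0.07 ± 0.17 in W329G cells and 0.20 ± 0.17 in WT cells on the log2 scale (edgeR adjusted p = 0.909 and 0.549).

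PIDD1 was read beside 5 reference targets of p53. In W329G cells CDKN1A, FAS, TNFRSF10B, BAX and BBC3 had a median log2 change of 0.38, against 0.03 over all genes, and none was called without blocks, while CDKN1A and TNFRSF10B were called with them. In WT cells all 5 rose, from 1.13 ± 0.14 for BAX to 2.44 ± 0.17 for CDKN1A, with a median of 1.82 against 0.03 over all genes, and the PIDD1 change of 1.05 ± 0.31 was close to that of BAX. The response of all 5 was smaller in W329G cells by edgeR's test of the difference, from -0.89 ± 0.20 for BAX (adjusted p = 0.0426) to -2.02 ± 0.26 for FAS (adjusted p = 0.00122). Of all genes, 0.705% were called in W329G cells without blocks and 10.6% with them. Without blocks 8.38% were called in WT cells and 1.16% for the difference.

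CASP2, the protease that PIDD1 activates through the adaptor CRADD, was lower under 5-FU in every WT pair and in 1 of 4 W329G pairs. It lies on chromosome 7 from 143288215 to 143307696 on the plus strand. In W329G cells CASP2 stood at 25.7, 20.6, 51.0 and 55.3 CPM under 5-FU, against 20.2, 22.2, 47.2 and 42.7 CPM under DMSO. The lower pair was replicate 2, and the change of 0.18 ± 0.14 did not pass (edgeR adjusted p = 0.62 without blocks and 0.253 with them).

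In WT cells CASP2 stood at 16.1, 19.3, 57.6 and 45.3 CPM under 5-FU, against 24.6, 26.6, 72.5 and 52.7 CPM under DMSO. The pairs stood at 0.654, 0.726, 0.795 and 0.86 times the DMSO level. All 8 libraries of experiment 2 lay above the 8 of experiment 1 for CASP2, so the groups overlapped over both experiments. Without blocks the log2 change of -0.40 ± 0.14 did not pass (edgeR adjusted p = 0.0903), and DESeq2 gave an adjusted p of 0.0409. With the pairs as blocks CASP2 fell by 0.40 ± 0.10 on the log2 scale (edgeR adjusted p = 0.0119), and the edgeR adjusted p was at most 0.0405 with any 1 pair left out.

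The CASP2 responses differed by 0.58 ± 0.14 with the pairs as blocks (edgeR adjusted p = 0.0294), and by 0.58 ± 0.19 without them, which did not pass (adjusted p = 0.242). CASP2 was the 1 of 8 members called for this difference with blocks, where 6.04% of genes were called. Without blocks 1.16% of genes and no member were called. At an unadjusted p under 0.05 edgeR then had 2 of 8 members, CASP2 and APAF1, and 9.24% of all genes. DESeq2 called no member and 3.05% of the genes to which it gave an adjusted p. The call with blocks was lost when WT replicate 1, 2 or 3 or W329G replicate 1, 3 or 4 was left out, with edgeR adjusted p between 0.0545 and 0.0786, and held without WT replicate 4 (0.0256) or W329G replicate 2 (0.0155).

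**Figure D3:**
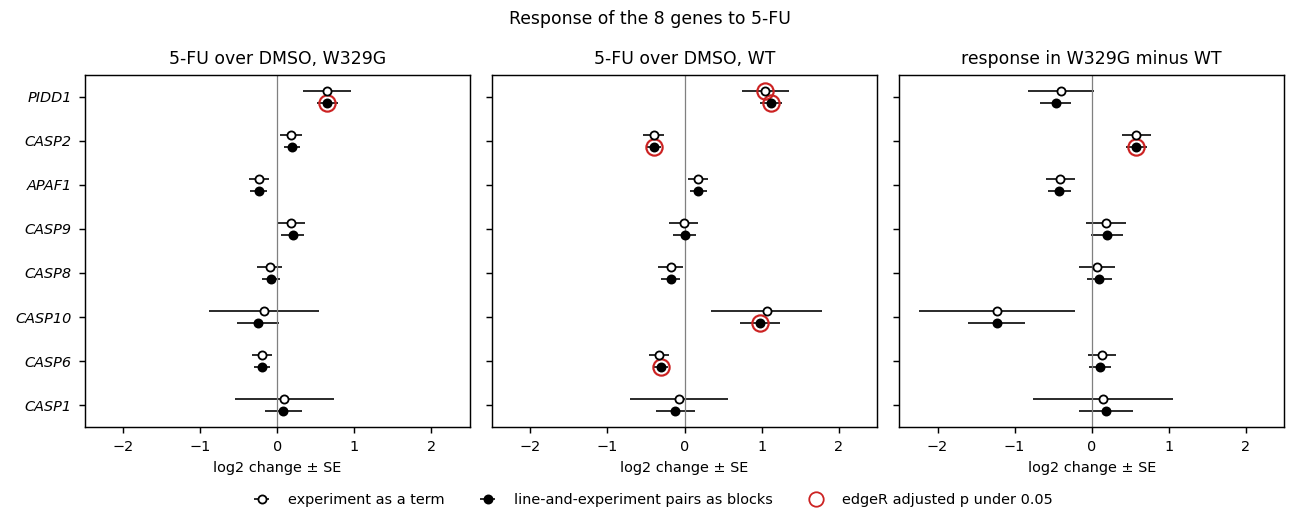
Log2 change under 5-FU in W329G cells, in WT cells, and the difference between them for the 8 genes, with bars for 1 SE; open points come from the fit with a term for experiment and filled points from the fit with cells-and-experiment pairs as blocks. Red circles mark an edgeR adjusted p under 0.05: PIDD1 in both genotypes, CASP2, CASP10 and CASP6 in WT cells, and CASP2 for the difference.

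The ratio of PIDD1 to CASP2 counts within a library needs no scaling between libraries. In W329G cells the ratio was 0.574, 1.46, 1.48 and 0.882 under 5-FU, against 0.569, 0.998, 0.93 and 0.583 under DMSO. In WT cells it was 3.40, 2.48, 1.79 and 1.79 under 5-FU, against 1.27, 0.668, 0.844 and 0.545 under DMSO. The 5-FU ratio was 1.01 to 1.59 times the DMSO ratio in the 4 W329G pairs and 2.12 to 3.71 times in the 4 WT pairs. These ranges of change did not overlap, and both genes had been seen to move before the ratio was formed, so no test is given.

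**Figure D4:**
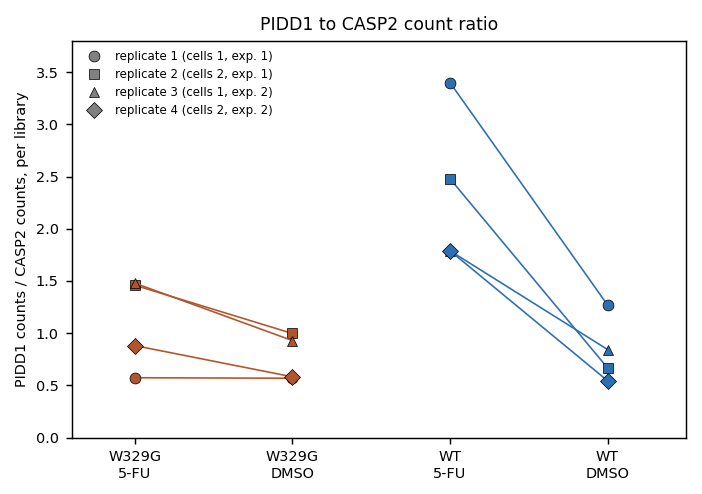
PIDD1 counts divided by CASP2 counts in each of the 16 libraries; symbols give the replicate and lines join the 5-FU and DMSO libraries of the same cells and experiment. The 4 WT 5-FU libraries lie between 1.79 and 3.40 and the other 12 between 0.545 and 1.48.

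Of the 9 listed partners of the PIDDosome, none was called in W329G cells without blocks, where 0.705% of all genes were called, and 1 rose and 2 fell in WT cells, where 8.38% were called. With blocks 1 of 9 was called in W329G cells and 5 of 9 in WT cells, against 10.6% and 24.8% of all genes. The median log2 change was -0.12 in W329G cells and -0.11 in WT cells, against 0.03 over all genes. MDM2, a CASP2 substrate and itself a p53 target, stood at 74.6, 56.6, 66.7 and 102 CPM in W329G cells under 5-FU, against 60.0, 41.6, 72.0 and 115 CPM under DMSO, a change of 0.11 ± 0.18 (edgeR adjusted p = 0.869). In WT cells MDM2 stood at 195, 189, 294 and 242 CPM under 5-FU, against 41.4, 46.8, 74.6 and 78.0 CPM under DMSO, and it rose by 1.97 ± 0.19 (edgeR adjusted p = 1.59e-05). Its WT groups did not overlap, and its responses differed by -1.86 ± 0.26 (edgeR adjusted p = 0.0027). The partners that fell in WT cells were FANCI, a Fanconi anaemia protein, at -1.04 ± 0.20, and BUB1B, a spindle checkpoint kinase, at -0.76 ± 0.19 (edgeR adjusted p = 0.0038 and 0.0181). With blocks BUB1B fell in W329G cells as well (-0.46 ± 0.09, edgeR adjusted p = 0.0104). In WT cells ANKRD26, a centriolar protein that recruits PIDD1, then fell by 0.29 ± 0.10 and BID, a BH3-only protein cut by caspases, by 0.67 ± 0.16 (edgeR adjusted p = 0.0465 and 0.00884). FANCI was called for the difference of the responses with blocks, at 0.92 ± 0.14 (edgeR adjusted p = 0.00173). For that difference 6.04% of all genes were called with blocks and 1.16% without them. CRADD was at -0.31 ± 0.15 in W329G cells and 0.23 ± 0.16 in WT cells and passed no comparison.

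APAF1 and CASP9, the scaffold and the protease of the apoptosome, were called in no comparison. APAF1 lies on chromosome 12 from 98645141 to 98735433 on the plus strand. In W329G cells APAF1 stood at 16.4, 11.9, 19.8 and 20.7 CPM under 5-FU, against 17.3, 14.6, 27.0 and 23.2 CPM under DMSO, lower in 4 of 4 pairs. In WT cells it stood at 14.9, 14.8, 23.0 and 21.3 CPM under 5-FU, against 11.2, 14.2, 18.0 and 22.8 CPM under DMSO, higher in 3 of 4 pairs. The groups overlapped in both genotypes. The log2 changes were -0.24 ± 0.13 in W329G and 0.17 ± 0.13 in WT cells, and their difference of -0.41 ± 0.19 did not pass (edgeR adjusted p = 0.479, 0.517 and 0.524, or 0.157, 0.264 and 0.14 with blocks). ANKS1B overlaps APAF1 on the opposite strand over 750 exon bases, with counts in experiment 1 of 5.53% of those of APAF1.

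CASP9, on chromosome 1 from 15490832 to 15526534 on the minus strand, stood in W329G cells under 5-FU at 9.17, 7.94, 8.45 and 8.69 CPM, against 11, 6.86, 6.55 and 6.11 CPM under DMSO. In WT cells it stood at 8.17, 9.15, 8.26 and 10.3 CPM under 5-FU, against 11.3, 9.48, 7.11 and 8.66 CPM under DMSO. Groups overlapped, and the direction turned with the experiment: the mean log2 change was -0.03 and -0.26 in W329G and WT pairs of experiment 1, and 0.43 and 0.23 in those of experiment 2. The fitted changes of 0.18 ± 0.18 in W329G cells and -0.01 ± 0.19 in WT cells did not pass (edgeR adjusted p = 0.74 and 0.993).

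Among 14 genes for the apoptosome and its regulators, none was called in W329G cells without blocks, against 0.705% of all genes, and 1 rose in WT cells, near the background of 8.38%. With blocks 1 of 14 was called in W329G cells and 5 of 14 in WT cells, against 10.6% and 24.8% of all genes. The median log2 change was -0.07 in W329G cells and -0.12 in WT cells, against 0.03 over all genes. The gene called was BIRC3, a member of the inhibitor of apoptosis family. BIRC3 stood at 6.25, 3.94, 2.07 and 2.00 CPM in W329G cells under 5-FU, against 1.54, 1.84, 1.70 and 1.65 CPM under DMSO, a change of 0.92 ± 0.35 (edgeR adjusted p = 0.267). In WT cells BIRC3 stood at 11.5, 7.96, 4.05 and 2.52 CPM under 5-FU, against 1.89, 2.26, 2.22 and 1.13 CPM under DMSO, a change of 1.62 ± 0.35 (edgeR adjusted p = 0.00896). Every 5-FU library of BIRC3 lay above every DMSO library in each genotype. With blocks HSPA4, a chaperone gene, fell in W329G cells by 0.40 ± 0.09 (edgeR adjusted p = 0.0147). In WT cells BIRC2, of the same family as BIRC3, then also rose (0.44 ± 0.11), while CYCS, which encodes cytochrome c, BIRC5, another member of the BIRC3 family, and HSP90AA1, a chaperone gene, fell by 0.36 ± 0.11, 0.47 ± 0.11 and 0.46 ± 0.11 (edgeR adjusted p from 0.00696 to 0.0324 over these 4). No gene of this list was called for the difference of the responses, against 1.16% of all genes without blocks and 6.04% with them.

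CASP8 and CASP10, the initiator caspases of death receptors, are neighbours on chromosome 2 in the same direction as CFLAR, a catalytically inactive relative that competes with them at FADD. CFLAR ends at 201176687, CASP10 runs from 201182881 to 201229406 and CASP8 from 201233443 to 201287711, with 4036 bases between the pair of caspase genes. CASP8 stood at 38.2, 37.1, 35.1 and 45.0 CPM in W329G cells under 5-FU, against 35.3, 34.6, 35.6 and 64.0 CPM under DMSO. In WT cells CASP8 stood at 40.1, 35.6, 40.9 and 41.3 CPM under 5-FU, against 37.6, 38.9, 47.2 and 56.4 CPM under DMSO. The log2 changes of -0.10 ± 0.16 in W329G cells and -0.18 ± 0.16 in WT cells did not pass (edgeR adjusted p = 0.854 and 0.591), and groups overlapped.

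CASP10 was close to the lower end of detection, with 6 to 128 counts per library. In W329G cells it stood at 0.202, 1.55, 2.85 and 0.916 CPM under 5-FU, against 0.28, 1.52, 2.97 and 1.46 CPM under DMSO. In WT cells CASP10 stood at 0.944, 4.60, 2.96 and 1.78 CPM under 5-FU, against 0.246, 1.71, 1.97 and 1.27 CPM under DMSO. All 4 WT pairs were higher under 5-FU, by 3.84, 2.68, 1.5 and 1.4 times, while in W329G cells 1 pair was higher and 3 were lower, and all groups overlapped. In WT cells the change was 1.07 ± 0.72 without blocks (edgeR adjusted p = 0.433) and 0.98 ± 0.26 with them, which passed (adjusted p = 0.0144). It did not pass with blocks when WT replicate 2 was left out (0.77, edgeR adjusted p = 0.115). The difference between the responses was -1.23 ± 1.01 without blocks and -1.23 ± 0.37 with them (edgeR adjusted p = 0.879 and 0.0725).

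Of 8 listed genes of the death receptor complex 7 were tested. None was called in W329G cells without blocks, against 0.705% of all genes, at a median log2 change of 0.06 against 0.03 over all genes. In WT cells 1 fell, against 8.38% of all genes called, at a median of -0.07 against 0.03 over all genes. With blocks 1 of 7 was called in W329G cells and 2 of 7 in WT cells, against 10.6% and 24.8% of all genes. The gene that fell in WT cells was CASP8AP2, which encodes a CASP8-binding nuclear protein, at 30.4, 26.0, 41.6 and 49.6 CPM in W329G cells under 5-FU against 24.4, 22.9, 46.0 and 55.7 CPM under DMSO. In WT cells CASP8AP2 stood at 13.7, 10.5, 27.5 and 32.3 CPM under 5-FU, against 23.4, 20.6, 35.7 and 46.4 CPM under DMSO, lower in every pair. The changes were 0.05 ± 0.15 in W329G cells and -0.65 ± 0.15 in WT cells (edgeR adjusted p = 0.933 and 0.0134), with overlapping groups. Their difference passed with blocks (0.69 ± 0.16, edgeR adjusted p = 0.0249) and not without (0.70 ± 0.21, adjusted p = 0.169). For the difference 6.04% of all genes were called with blocks and 1.16% without. With blocks PEA15, a death effector domain protein, rose in W329G cells (0.35 ± 0.09, edgeR adjusted p = 0.0285) and TRADD, an adaptor of TNF receptors, rose in WT cells (0.52 ± 0.15, adjusted p = 0.0217). CFLAR was at -0.18 ± 0.12 in W329G cells and 0.26 ± 0.12 in WT cells, neither called.

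CASP6, an executioner caspase that cuts lamin A, was lower under 5-FU in every pair of both genotypes. It lies on chromosome 4 from 109688622 to 109703583 on the minus strand. In W329G cells it stood at 20.9, 20, 15.5 and 15.4 CPM under 5-FU, against 23.1, 23.0, 17.7 and 18.5 CPM under DMSO. In WT cells CASP6 stood at 17.6, 17.3, 12.4 and 13.9 CPM under 5-FU, against 18.5, 21.6, 14.3 and 21.8 CPM under DMSO. Within each experiment both 5-FU libraries lay below both DMSO libraries in both genotypes, and over both experiments the groups overlapped.

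The CASP6 changes of -0.20 ± 0.13 in W329G cells and -0.33 ± 0.13 in WT cells did not pass without blocks (edgeR adjusted p = 0.548 and 0.142). With blocks CASP6 fell in WT cells by 0.31 ± 0.10 (edgeR adjusted p = 0.0406), a call that was lost without WT replicate 2, 3 or 4 or W329G replicate 3 (edgeR adjusted p = 0.116, 0.0604, 0.239 and 0.0579). In W329G cells it stayed at an edgeR adjusted p of 0.212 with blocks. MCUB, which shares 105 exon bases with CASP6 on the opposite strand and had 71.41% of its counts in experiment 1, changed with blocks by -0.08 ± 0.11 in W329G cells and -0.37 ± 0.12 in WT cells (edgeR adjusted p = 0.703 and 0.0353). Its part in the CASP6 value was not tested.

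With blocks 1 of the 8 members, PIDD1, was called in W329G cells, where 10.6% of genes were called. In WT cells 4 of the 8 were called with blocks, PIDD1 and CASP10 higher and CASP2 and CASP6 lower, where 24.8% of genes were called. The median log2 change of the 8 members was -0.01 in W329G cells and -0.04 in WT cells without blocks, against 0.03 over all genes in each.

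CASP4 was called in neither response, with or without blocks. The 10 listed proteins that caspases cut or act through had no call in W329G cells without blocks, against 0.705% of all genes. In WT cells, where 8.38% of all genes were called, LMNB1, the gene of lamin B1, fell by 1.04 ± 0.14 (edgeR adjusted p = 0.000357) and no other of the 10 passed without blocks. With blocks 2 of 10 were called in W329G cells and 4 of 10 in WT cells, against 10.6% and 24.8% of all genes. With blocks LMNB1 and PAK2, a kinase, fell in W329G cells by 0.49 ± 0.11 and 0.37 ± 0.08 (edgeR adjusted p = 0.0139 and 0.0151). In WT cells GSDME, a pore-forming gasdermin cut by a caspase, and SPTAN1, a spectrin, then rose (0.48 ± 0.08 and 0.49 ± 0.10), and PARP1, a DNA repair enzyme, fell by 0.48 ± 0.08 (edgeR adjusted p from 0.000609 to 0.00435 over these 3). GSDME was the 1 of the 10 called for the difference of the responses with blocks, at -0.65 ± 0.11 (edgeR adjusted p = 0.00294). In that comparison 6.04% of all genes were called.

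CASP1, the protease of the inflammasome, lies on chromosome 11 from 105025443 to 105035250 on the minus strand, 2274 bases from CASP5 and 6075 bases from CARD16. CARD16 is nearly identical in sequence to part of CASP1, so its reads and those of CASP1 may be exchanged. In W329G cells CASP1 stood at 1.66, 3.76, 1.54 and 0.417 CPM under 5-FU, against 1.12, 2.95, 1.99 and 0.55 CPM under DMSO. In WT cells it stood at 0.739, 1.60, 2.08 and 0.395 CPM under 5-FU, against 0.78, 1.71, 1.97 and 0.565 CPM under DMSO. The groups overlapped, and no comparison was called, with changes of 0.09 ± 0.64 in W329G cells and -0.07 ± 0.64 in WT cells (edgeR adjusted p = 0.977 and 0.97). Counts were 16 to 108 per library. PTPRC, the defining marker of blood cells, stood at 0.245 to 1.64 CPM. Of the 10 blood cell markers 3 averaged at least 1 CPM: LYZ, CD68 and LAPTM5, which reached 126, 17.2 and 3.29 CPM. Their part in the CASP1 value was not tested.

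CASP1 and CASP10 differed between the numbered cells within every group, and the order turned round between experiments. In experiment 1 cells 2 had more CASP1 than cells 1 in all 4 groups, and in experiment 2 cells 1 had more in all 4, by 2.16 to 5.27 times. CASP10 showed the same order in all 8 comparisons, by 1.55 to 7.67 times. CASP2 also turned round between experiments in all 4 groups, by only 1.08 to 1.38 times. PIDD1 turned in the 2 W329G groups, where cells 2 were higher in experiment 1 and cells 1 in experiment 2, and in the WT groups cells 1 were higher throughout. These orders are descriptions, since each rests on single libraries.

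**Figure D5:**
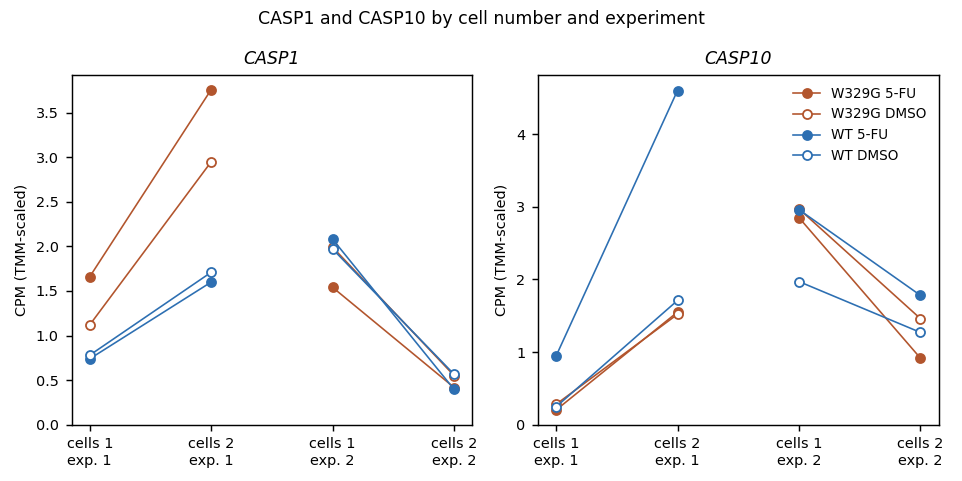
CASP1 and CASP10 in CPM by numbered cells and experiment, on axes that start at 0; each line joins cells 1 and cells 2 of 1 group within an experiment, filled for 5-FU and open for DMSO. All lines go up in experiment 1 and down in experiment 2.

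Of 18 CARD and inflammasome genes 17 were tested, and none was called in either response or their difference without blocks. All genes called were then 0.705% in W329G cells, 8.38% in WT cells and 1.16% for the difference. With blocks NLRP3, the sensor of an inflammasome, and RIPK2, a CARD kinase, rose in WT cells by 1.17 ± 0.29 and 0.34 ± 0.09 (edgeR adjusted p = 0.0107 and 0.0127). These were 2 of the 17, against 24.8% of all genes called with blocks. Some of the 17 were measured in little more than experiment 1. PYCARD stood at 0 CPM in every library of experiment 2, and the group means of NLRC4 and IL1B there were at most 0.0115 and 0.0123 CPM. BCL10 had group means of 21.7 to 30.9 CPM in experiment 1 and 0.513 to 1.01 CPM in experiment 2. A missing call says little about such genes.

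The genotypes were then compared under each treatment, on counts summed over both experiments for each numbered cell line. These fits had no term for experiment, so each sum weighs the experiments by their depth. Under DMSO the scaled library sizes of WT cells 1 were 24371158 in experiment 1 and 54857251 in experiment 2. Those of W329G cells 1 were 35695575 and 37725102. A gene whose level differs between experiments can shift with this mix, and the size of that shift was not tested. Under DMSO edgeR called none of the 8 members, with 1.38% of 17505 genes called. At an unadjusted p under 0.05 it had 1 of 8, CASP2, against 18.9% of all genes, a share of members no larger than the background. DESeq2 also called CASP2 as the 1 member, and 8.55% of the genes to which it gave an adjusted p. CASP2 was lower in W329G cells in both experiments, with 20.2, 22.2, 47.2 and 42.7 CPM in W329G against 24.6, 26.6, 72.5 and 52.7 CPM in WT, and within each experiment both W329G libraries lay below both WT libraries. The change was -0.55 ± 0.17 (edgeR adjusted p = 0.142, DESeq2 adjusted p = 0.0423, and edgeR 0.0493 without a filter on low counts). Without that filter 919 genes were called under DMSO, against 242 with it. By experiment, the CASP2 means were 21.2 CPM in W329G and 25.6 CPM in WT cells in experiment 1, and 44.9 and 62.6 CPM in experiment 2. The summed value thus depends on the mix of experiments. With the numbers exchanged in experiment 2 CASP2 was at -0.53 ± 0.20 (edgeR adjusted p = 0.627). CASP2 was called in 3 of 12 alternative settings, and its log2 change stayed between -0.8 and -0.28 over them. PIDD1 was at -0.55 ± 0.30 (edgeR adjusted p = 0.366). Its value depended on the WT sums, at 0.13 without the WT cells 1 sum and -1.02 without the WT cells 2 sum. With the numbers exchanged PIDD1 was at -0.53 ± 0.37 (edgeR adjusted p = 0.741). Both W329G libraries of APAF1 lay above both WT libraries within each experiment, at 0.25 ± 0.13, or 0.26 ± 0.15 with the numbers exchanged (edgeR adjusted p = 0.342 and 0.709).

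Under 5-FU edgeR again called none of the 8 members, while 14.3% of 17505 genes were called. At an unadjusted p under 0.05 it had 2 of 8, CASP10 and PIDD1, and 29.7% of all genes. DESeq2 called these 2, and 20.3% of the genes to which it gave an adjusted p, so the members' counts were near the background. PIDD1 stood at 14.7, 30.1, 75.5 and 48.8 CPM in W329G cells, against 54.7, 47.8, 103 and 81.0 CPM in WT cells, with both W329G libraries below both WT libraries in each experiment. Its change was -0.81 ± 0.30 (edgeR adjusted p = 0.11, DESeq2 adjusted p = 0.0207). The edgeR call depended on the filter: the adjusted p was 0.015 without a filter on low counts, a fit that called 3045 genes against 2508 with the filter. PIDD1 was called in 4 of 12 alternative settings, and its log2 change stayed between -1.2 and -0.56 over them. CASP10 was at -0.91 ± 0.27 (edgeR adjusted p = 0.0536, DESeq2 adjusted p = 0.0382). With the numbers exchanged in experiment 2, PIDD1 was at -0.76 ± 0.37 and CASP10 at -0.79 ± 0.80 (edgeR adjusted p = 0.371 and 0.692). The exchange left 222 genes called of all tested under 5-FU, against 2508 as labelled, and 2 against 242 under DMSO. CASP2, lower in W329G under DMSO, was at 0.06 ± 0.17 under 5-FU, or 0.06 ± 0.20 with the numbers exchanged (edgeR adjusted p = 0.851 and 0.928). This summed value covers unlike experiments: CASP2 means were 23.2 CPM in W329G and 17.7 CPM in WT cells in experiment 1, and 53.2 and 51.5 CPM in experiment 2. In experiment 1 both W329G libraries lay above both WT libraries, and in experiment 2 they overlapped. CASP6, at 0.28 ± 0.16, was higher in W329G than in WT within each experiment and was not called, as labelled or with the numbers exchanged (edgeR adjusted p = 0.295 and 0.44).

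In the comparison under DMSO edgeR called 1.38% of all 17505 genes tested. Among the listed genes around the members it called 1, SPTAN1 of the 10 cleaved proteins, higher in W329G cells by 1.90 ± 0.16 (edgeR adjusted p = 0.00276). That call was lost with the numbers exchanged (1.90, edgeR adjusted p = 0.574) and without either W329G sum (0.183 without cells 1 and 0.105 without cells 2). Under 5-FU BID, FANCI and BUB1B among the PIDDosome partners were higher in W329G cells by 0.82 ± 0.16, 0.72 ± 0.14 and 0.86 ± 0.13, and MDM2 was lower at -1.61 ± 0.15. BIRC5 (0.40 ± 0.11), CASP8AP2 (0.74 ± 0.12) and TRAF2, an adaptor of TNF receptors (0.68 ± 0.18), were higher, and CFLAR (-0.37 ± 0.10) and NLRP3 (-1.29 ± 0.24) were lower. Of the cleaved proteins PARP1, LMNB1 and SPTAN1 were higher (0.73 ± 0.10, 0.64 ± 0.12 and 1.67 ± 0.15) and LMNA was lower (-0.49 ± 0.10). The edgeR adjusted p of these 13 genes ran from 0.000565 to 0.046. Calls were 3 higher and 1 lower of 9 PIDDosome partners, and 1 higher of 14 apoptosome genes. They were 2 higher and 1 lower of 7 death receptor complex genes, and 1 lower of 17 CARD and inflammasome genes. Of the 10 cleaved proteins 3 were higher and 1 was lower. Over all 17505 genes tested under 5-FU 14.3% were called. With the numbers exchanged in experiment 2 all 13 kept their direction, but 1 of the 13 was called, MDM2 (-1.64, edgeR adjusted p = 0.0373), and the edgeR adjusted p of the 13 reached 0.443. Without the W329G cells 1 sum 3 of the 13 were called, MDM2, SPTAN1 and BUB1B, and without the W329G cells 2 sum 2 were, MDM2 and SPTAN1. Without the WT cells 1 sum all 13 were called, and without the WT cells 2 sum 11 were, all but BIRC5 and CFLAR.

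The genes whose log2 CPM followed each member most closely over the 16 libraries were listed among 11344 genes with a mean of at least 5 CPM, by Pearson's r. Each gene's mean within an experiment was subtracted first, so r leaves out the difference between experiments. Libraries share experiment, treatment and cells, so these are descriptions without a test. PIDD1 was followed by ZNF707 (0.957), EML2 (0.952) and PLEKHM1P1 (0.944), CASP2 by PLAGL2 (0.913) and RIOX1 (0.888), and CASP6 by CREB1 (0.933). CASP8 was followed by TCEAL4 (0.934), APAF1 by KIFAP3 (0.821) and CASP9 by KLHDC8B (0.80). CASP1 and CASP10 were below the level set for this comparison.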

How the data were processed

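Each of the 16 libraries has a table of raw counts from the authors, with Ensembl genes, exon coordinates and lengths in experiment 1 and gene symbols in experiment 2, per the file headers. Libraries were poly-A TruSeq, per the labels' protocols. Neither the aligner nor the counter is given in the sources used here. A genome build of hg19 is named in the submitters' processing notes, while 96.3% of 56898 genes in the experiment 1 tables had the start and end of GENCODE release 29, which is on GRCh38, so coordinates are those of the tables. The largest counts of experiment 2 appear rounded, since the 26 values that have at least 7 digits end in 0. Symbols joined 28735 genes, 292 of them by an older name, and 20 ambiguous symbols were left out. Promoter sequences are from RefSeq (GRCh38.p14).

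Tests on counts used edgeR 4.0.16 (quasi-likelihood F test, TMM, filterByExpr, Benjamini-Hochberg adjustment over all genes tested, threshold 0.05) in R 4.3.3. Responses to 5-FU and their difference were fitted on 16 libraries with a term for experiment. Genotypes were compared on counts summed over both experiments for each numbered cell line, as labelled, with no term for experiment. SE is the absolute log2 change divided by the root of F. The pairing of 5-FU and DMSO libraries by cell number and experiment comes from the titles and was checked: the difference between cells 1 and 2 correlated between treatments with r of 0.709 and 0.633 in W329G and 0.488 and 0.596 in WT. Values with these pairs as blocks stand beside the main ones where they change a call. No pair of libraries was a copy: within a group and experiment, chi-square over its degrees of freedom was 60.5 to 181.9. The main fits, but not those with blocks, were also run on simulated counts. These had the same spread for every gene and no effect of cells or pairs. They therefore do not measure error rates in these libraries. Intervals for single counts are not given, and totals of 24715999 counts or more leave counting error small except for CASP1 and CASP10.

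Alternatives were DESeq2 1.42.0 and its size factors, no filter on low counts, no experiment term, the pairs as blocks, single experiments, single libraries, exchanged cell numbers, and leaving out each pair or line sum. Fits without mitochondrially encoded genes, and with blocks while leaving out each pair, were chosen after seeing the data. The members, the gene lists around them and the tests were chosen with earlier results of these data known. All 8 members are named, with each listed gene that passed a test and, for lists without one, genes named for their place in the pathway. Some listed genes are not reported here.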

Additional observations from a re-analysis of the deposited data

Results flagged for a closer look

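Among 32 sets of 4 libraries (8 genes in 4 groups) a gap test for single outlying libraries marked 2, and chance marks about 1 in 20. In W329G DMSO, CASP8 stood at 64.0 CPM in replicate 4, against 34.6 to 35.6 CPM in the other 3 libraries. In the same group CASP9 stood at 11 CPM in replicate 1, against 6.11 to 6.86 CPM in the other 3. Neither gene passed a test in a comparison that uses this group.

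The CASP2 responses to 5-FU differed between W329G and WT cells by 0.58 ± 0.14 on the log2 scale with pairs as blocks (edgeR adjusted p = 0.0294). That fit called 6.04% of all genes. Without blocks the difference of 0.58 ± 0.19 did not pass (edgeR adjusted p = 0.242). The call with blocks was lost when WT replicate 1, 2 or 3 or W329G replicate 1, 3 or 4 was left out. CASP2 was higher under 5-FU in 3 of 4 W329G pairs and lower in 4 of 4 WT pairs.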

How the results depend on the processing

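Of 768 member values under alternatives, 688 kept their direction and their side of the threshold, 9 lost a call, 43 gained one and 28 changed sign, none of the 28 with a call. The cause of these changes was not tested.

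For the W329G response the members called were 1 with the pairs as replicate block and 0 to 1 when a pair was left out, with or without blocks. All genes called, 116 in the main fit, were 571 with DESeq2, 1739 with the replicate block, 6 without an experiment term, 0 in either experiment alone, and 8 to 2119 with a pair left out. For the WT response the members called, 1 in the main fit, were 2 with DESeq2, 4 with the replicate block, 0 without an experiment term and 0 in either experiment alone, and 0 to 4 with a pair left out. All genes called, 1379 in the main fit, were 2096 with DESeq2, 4087 with the replicate block, 372 without an experiment term, 205 in experiment 1 alone, 0 in experiment 2 alone, and 637 to 4264 with a pair left out. For the difference of the responses the members called were 1 with the replicate block and 0 to 1 with a pair left out. All genes called, 191 in the main fit, were 473 with DESeq2, 993 with the replicate block, 27 without an experiment term, 0 in either experiment alone, and 85 to 987 with a pair left out. With blocks as such, leaving out a pair gave 716 to 2119 genes for W329G, 2736 to 4264 for WT and 585 to 987 for the difference.

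For W329G against WT under DMSO the members called were 1 with DESeq2, 1 without a filter on low counts and 0 to 2 without a line sum. All genes called, 242 in the main fit, were 1265 with DESeq2, 919 without the filter, 0 in experiment 1 alone, 4 in experiment 2 alone, 146 on single libraries, 2 with exchanged cell numbers, and 0 to 2297 without a line sum. Under 5-FU the members called were 2 with DESeq2, which called 3345 of all genes, and 1 without the filter, where 3045 of all genes were called. All genes called, 2508 in the main fit, were 421 in experiment 1 alone, 30 in experiment 2 alone, 222 with exchanged cell numbers, and 178 to 2967 without a line sum.

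Signs turned on the log2 scale in single experiments as follows. In experiment 1 alone CASP8 was at 0.11 and CASP9 at -0.06 for the W329G response, and CASP10 was at -0.16 for the genotypes under DMSO. In experiment 2 alone CASP9 was at 0.19 for the WT response, and CASP1 was at -0.43 for the W329G response, -0.35 for the difference, -0.01 for the genotypes under DMSO and -0.35 for them under 5-FU. With a pair left out, CASP1 ran from -0.11 to 0.28 and CASP8 from -0.19 to 0.07 for the W329G response, CASP9 from -0.10 to 0.12 for the WT response, and CASP6 from -0.03 to 0.23 and CASP8 from -0.05 to 0.27 for the difference. Without a line sum under DMSO, PIDD1 ran from -1.02 to 0.13, CASP6 from -0.09 to 0.39 and CASP8 from -0.38 to 0.11. Under 5-FU CASP2 then ran from -0.05 to 0.19, CASP8 from -0.12 to 0.12 and CASP9 from -0.19 to 0.09. Where leaving out a line sum leaves 1 sum in a group, that sum is assumed to vary like the other groups.

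Depth limits CASP1 and CASP10, with 16 to 108 and 6 to 128 counts per library.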
